A study of Mus musculus with 6 samples.

Results

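Chemokines are small secreted proteins that direct the movement of leukocytes, and their receptors are G protein-coupled receptors on the cells that respond. The family examined here was every protein-coding gene whose mouse symbol begins with Ccl, Cxcl, Ccr or Cxcr and a digit, together with Cx3cl1, Cx3cr1, Xcl1 and the atypical receptors Ackr1 to Ackr4. By this rule 66 of the 50686 genes in the deposited table were members, of which 44 were ligands, 18 were receptors and 4 were atypical receptors. They carried 61 distinct symbols, since 7 entries lie on unplaced scaffolds and 5 of these repeat a symbol found elsewhere in the table. The tissue was the adult lacrimal gland, which makes most of the fluid of tears. There were 3 libraries from Eda-/- mice, named Tabby in the titles, and 3 from wild-type mice, named Blacky. All 6 mice were 13 weeks old and carried the strain label C57BL/6, no treatment was given, and the design text calls the samples of each condition biological replicates. The labels give the mutant genotype as Eda-/- and name no tissue-specific deletion, so effects in the gland itself and effects from elsewhere in the body cannot be told apart.

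Chemokines are classed by the spacing of their first cysteines into the CC, CXC, CX3C and XC groups. Some, such as Ccl28, Ccl25, Cxcl12 and Cxcl14, are made steadily by epithelium or stroma, and others, such as Cxcl1, Cxcl10 and Ccl2, are made mainly when NF-kB or interferon signalling is active. Ectodysplasin A, the product of Eda, is a ligand of the TNF family that signals through its receptor Edar to NF-kB, and in the embryonic skin of the mouse Cxcl10, Cxcl11 and Cx3cl1 are known as genes that respond to it. The atypical receptors bind chemokines and clear them without the usual G protein signal.

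The libraries held 11894395 to 14480331 counts in Eda-/- glands and 13670343 to 15700899 in wild-type glands. Eda had 2, 0 and 0 counts in the Eda-/- libraries, against 41, 48 and 42 in the wild-type libraries. The acinar genes Aqp5, a water channel, and Bhlha15, a transcription factor of serous cells, had at least 1089 counts in every library. Of 13178 genes tested, 819 were higher and 909 lower in Eda-/- glands at an adjusted p under 0.05. Libraries were scaled by TMM, a trimmed mean of ratios between libraries. With library totals alone the median gene lay at -0.28 (log2) and the split was 246 higher and 4365 lower. Wild-type library 3 stood apart for this family. It was the highest wild-type library for 13 of the 17 family members that could be tested, whereas it was the highest for 36.3% of all tested genes. The values below are therefore also given without it where it matters.

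Of the 66 members, 53 had at least 1 count and 17 had enough counts to be tested (12 ligands, 4 receptors and the atypical receptor Ackr3). Of these 17, 14 were above the filter on low counts in all 3 libraries of each group. The other 3 (Cxcl1, Ccl8 and Cx3cr1) passed through the wild-type libraries, which makes a difference easier to find in them. A further 36 members had 1 or more counts and were too low for the filter, and 13 had 0 counts in all 6 libraries. Those 13 comprised the 7 scaffold copies (of Ccl19, Ccl21a, Ccl21b, Ccl21c and Ccl27) and Ccl21a, Ccl21b, Ccl26, Ccl27b, Ccr8 and Cxcr2 on the chromosomes. The counts of Ccl21a, Ccl21b and Ccl27b are uncertain, because 80.6%, 100% and 100% of their 31-base words occur in other annotated genes. The low counts of Ccl19 and Ccl27a are uncertain too, with shares of 58.8% and 57.0%. For the 7 scaffold copies no words were available to compare. Among the tested members the highest such share was 3.75%, in Ccl9.

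The level of the family was set by Ccl28. This CC chemokine is made by the epithelium of mucosae and exocrine glands and attracts cells that carry Ccr10, among them IgA-secreting plasma cells. Its counts were 2167, 2580 and 2656 in Eda-/- glands, against 3786, 3425 and 3268 in wild-type glands. It supplied 57.3% to 74.5% of all member counts in a library. As a level per length, in CPM (counts scaled to a common library size) per kilobase of exon, Ccl28 stood at 43.9 ± 5.52 in Eda-/- glands and 44.5 ± 3.73 in wild-type glands (SD, n = 3 each). The member next below it was Ccl9, a monocyte-attracting CC chemokine, at 7.602 ± 0.615 CPM per kilobase in Eda-/- glands and 8.17 ± 3.11 in wild-type glands. The ranges of Ccl28 and Ccl9 over the 6 libraries did not overlap. Of the 16 neighbouring pairs in the order of levels per length, the other 15 did overlap, so the order from Ccl9 down is not a firm one. The receptor genes Ccr9 and Cx3cr1 lay near the low end of the order, with Cx3cr1 at 0.240 ± 0.0831 CPM per kilobase in Eda-/- glands and 0.547 ± 0.169 in wild-type glands.

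**Figure D1:**
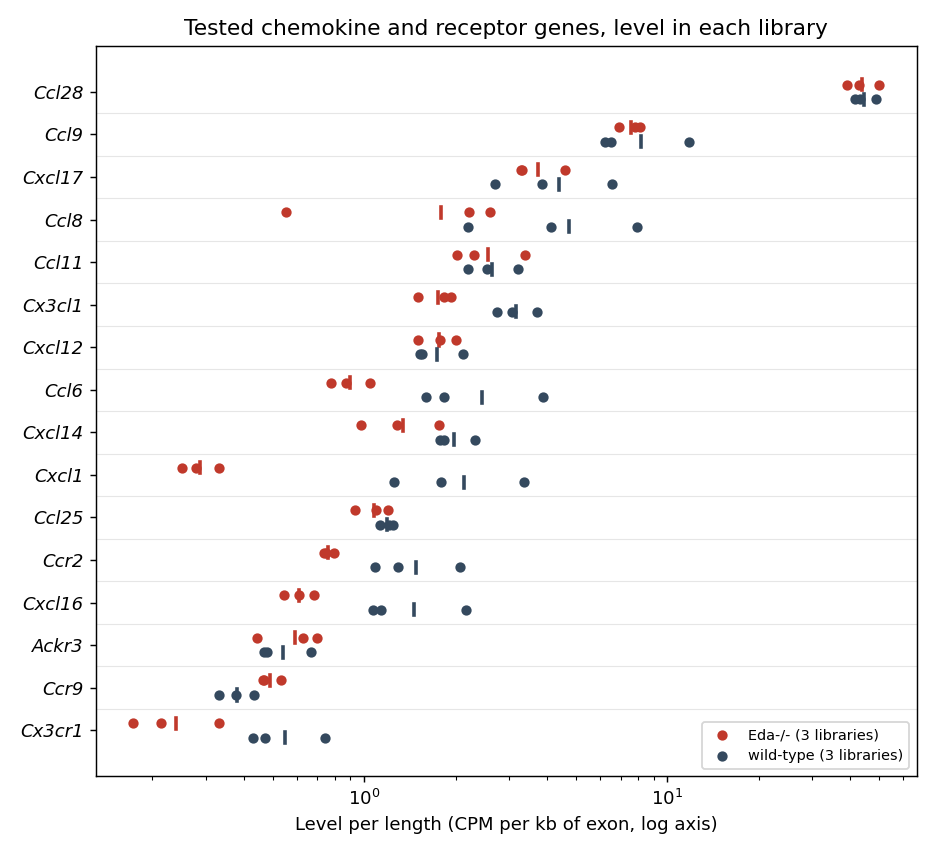
Level per length (CPM per kilobase of exon, log axis) of 16 of the 17 tested genes in each library, ordered by their mean, with Eda-/- libraries above wild-type libraries; points are libraries and vertical bars are group means. Ccl28 stands clear of the rest, and the Eda-/- points lie left of the wild-type points for Cxcl1, Cx3cl1, Cx3cr1, Ccl6, Ccr2, Cxcl16 and Cxcl14.

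The comparison of genotypes asked which members differ in the gland without ectodysplasin A. In Eda-/- glands 7 of the 17 tested members fell and 0 rose. Among the 7 were the ligands Cxcl1, Cxcl16, Ccl6 and Cx3cl1 and the receptors Cx3cr1 and Ccr2. Over all tested genes 6.90% were lower by the same rule and 6.21% higher, and 13.1% passed in either direction. Of the 7, Cxcl1 and Cx3cr1 passed the filter through the wild-type libraries, and of the 14 members above it in all 6 libraries 5 fell. In 8 of the 17 members every Eda-/- library lay below every wild-type library, a pattern found in 16.2% of all tested genes. The median log2 fold change (Eda-/- over wild-type) was -0.55 over the 17 members and 0.00 over all tested genes. Of the 17, 14 were below 0, against 49.5% of all tested genes. Both family values include Cxcl1, Ccl8 and Cx3cr1, which passed the filter through the wild-type libraries. Without them the median lay between Cxcl17 (-0.23) and Ccl25 (-0.15). DESeq2 called 7 members lower, where it called 5.27% of all tested genes lower. The count of higher members was 0 in all 18 alternative fits, DESeq2 and limma-voom among them, and at an unadjusted p under 0.05 in edgeR the count of higher members was also 0. These are bulk glands, in which fewer cells of a type and less RNA per cell cannot be told apart.

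**Figure D2:**
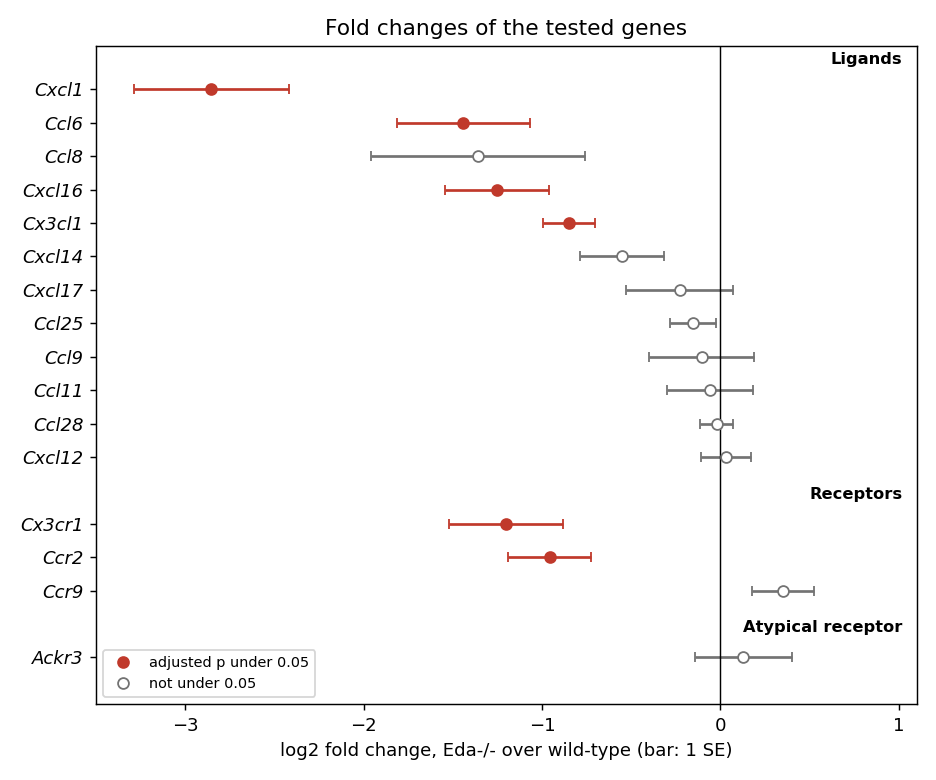
Log2 fold change, Eda-/- over wild-type, of 16 of the 17 tested genes with 1 standard error, grouped into ligands, receptors and the atypical receptor; filled points have an adjusted p under 0.05. The 6 filled points run from -2.85 (Cxcl1) to -0.85 (Cx3cl1), and Ccr9 is the highest open point at 0.35.

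Cxcl1 had the lowest fold change of the 17 tested members. It encodes a CXC chemokine that acts on neutrophils through Cxcr2. Its counts were 6, 5 and 8 in Eda-/- glands, against 54, 40 and 98 in wild-type glands. The groups were far apart, and wild-type 3 was the highest library. Cxcl1 averaged 0.539 ± 0.0787 CPM in Eda-/- glands and 4.003 ± 2.04 CPM in wild-type glands (SD, n = 3 each), a log2 fold change of -2.85 (SE 0.44, edgeR quasi-likelihood test, adjusted p = 0.00133). It passed in each of 18 alternative fits, and without wild-type 3 the log2 fold change was -2.36. Cxcr2 had 0 counts in all 6 libraries. The neutrophil genes S100a8 and S100a9 had 1 count each over the Eda-/- libraries and 0 over the wild-type libraries. Cxcl1 lies on chromosome 5 at 90891241 to 90893115 (GRCm38, plus strand). Within 1 megabase 7 other genes were tested and 2 passed, Cox18 higher and Pf4 lower, where 13.1% of all tested genes passed in either direction. Pf4, chosen after its values were seen, encodes platelet factor 4, a CXC chemokine whose symbol falls outside the family rule. It had 6, 6 and 3 counts in Eda-/- glands, against 28, 21 and 26 in wild-type glands, with a log2 fold change of -1.82 (SE 0.38, edgeR adjusted p = 0.00519), and it was above the filter in the wild-type libraries only.

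The promoters below are shown because they belong to the 2 ligands that passed in every fit, Cxcl1 and Cx3cl1, and to the most abundant ligand, Ccl28, which did not pass. Each is the 250 bases before the RefSeq start of the gene, from RefSeq on GRCm38.p6, read 5′ to 3′ on the strand of the gene, and all 3 genes are on the plus strand. Capitals mark every match to the NF-kB-like letters (GGGA, any 4 bases, CC), the interferon-response letters (TTTC, any 2 bases, TTTC) or the TATA box letters (TATAAA), on either strand.
Cxcl1, chr5:90890995-90891244: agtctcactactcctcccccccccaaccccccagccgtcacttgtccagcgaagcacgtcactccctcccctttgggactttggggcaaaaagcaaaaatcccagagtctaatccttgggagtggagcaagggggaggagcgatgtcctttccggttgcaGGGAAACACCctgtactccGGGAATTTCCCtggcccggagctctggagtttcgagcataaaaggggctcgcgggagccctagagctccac
Cx3cl1, chr8:94771930-94772179: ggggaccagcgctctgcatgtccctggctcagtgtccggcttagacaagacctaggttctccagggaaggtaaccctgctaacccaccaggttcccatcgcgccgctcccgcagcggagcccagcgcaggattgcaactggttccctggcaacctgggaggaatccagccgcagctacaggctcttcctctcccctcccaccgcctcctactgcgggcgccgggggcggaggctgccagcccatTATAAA
Ccl28, chr13:119623569-119623818: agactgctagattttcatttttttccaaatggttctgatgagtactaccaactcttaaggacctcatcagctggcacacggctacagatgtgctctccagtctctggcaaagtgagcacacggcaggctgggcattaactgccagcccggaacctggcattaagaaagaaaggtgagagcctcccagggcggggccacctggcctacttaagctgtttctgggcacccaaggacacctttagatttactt

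The Cxcl1 promoter held 3 NF-kB-like matches. One began 90 bases before the start, one began 71 bases before it, and the third, on the other strand, began 70 bases before it and overlapped the second by all but its last base. The Cx3cl1 promoter held a TATA match that began 6 bases before the RefSeq start and no NF-kB-like match. The Ccl28 promoter held none of the motifs. Of 32851 promoters of the same length 17.6% held the NF-kB-like letters, 2.98% the interferon-response letters and 12.4% the TATA letters. Promoters were found for 13 of the 17 tested members. NF-kB-like matches occurred in 1 of the 5 members with a promoter that fell (Cxcl1) and in 1 of the 8 that did not pass (Ccr9), and the interferon-response letters occurred in Cxcl14. Such matches describe the letters in this window only. GENCODE starts some genes before the RefSeq start, with Cx3cl1 at 94772009. The windows of Cx3cl1, Cx3cr1, Ccr2 and Ccr9, and a window of Ccl25, therefore lie largely or wholly inside the gene as GENCODE annotates it.

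Cx3cl1 had the steadiest difference. It encodes fractalkine, the only CX3C chemokine, which is held on the cell surface of epithelium and endothelium and can be shed. Its counts were 87, 63 and 92 in Eda-/- glands, against 193, 183 and 228 in wild-type glands. The groups did not overlap, and the wild-type libraries differed little among themselves. Cx3cl1 averaged 6.89 ± 0.880 CPM in Eda-/- glands and 12.5 ± 1.97 CPM in wild-type glands, and fell by 0.85 on the log2 scale (SE 0.14, edgeR adjusted p = 0.00113), to 55.5% of the wild-type level. The log2 fold change lay between -0.94 and -0.71 with each library left out in turn, with an adjusted p of at most 0.00679. Its receptor gene Cx3cr1, which marks monocytes and tissue macrophages, had 11, 16 and 10 counts in Eda-/- glands, against 34, 33 and 52 in wild-type glands. Again every Eda-/- library was below every wild-type library. Cx3cr1 fell by 1.20 on the log2 scale (SE 0.32, edgeR adjusted p = 0.0220), but did not pass without wild-type 3 (-0.92, adjusted p = 0.0892), Eda-/- 1 or Eda-/- 3.

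Cxcl16 encodes another chemokine that is held on the cell surface, made by macrophages, dendritic cells and epithelium, and its receptor is Cxcr6. Its counts were 21, 22 and 21 in Eda-/- glands, against 55, 55 and 102 in wild-type glands. The Eda-/- libraries were nearly equal, and wild-type 3 stood above the other two. Cxcl16 fell by 1.25 on the log2 scale (SE 0.29, edgeR adjusted p = 0.0129), and by 0.85 without wild-type 3 (adjusted p = 0.0321). It did not pass without Eda-/- 1 (adjusted p = 0.0669) or Eda-/- 3 (0.0680). Of its exon bases 18.3% overlap Zmynd15 on the other strand, and the strand setting of the counting is not given in the sources used here. Zmynd15 had 3, 5 and 2 counts in Eda-/- glands, against 6, 11 and 14 in wild-type glands, fewer than Cxcl16 in every library. The receptor gene Cxcr6 was too low to test, with 4, 2 and 5 counts in Eda-/- glands, against 8, 7 and 7 in wild-type glands.

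Ccl6 is a CC chemokine of mouse macrophages that acts through Ccr1. It had 16, 20 and 20 counts in Eda-/- glands, against 46, 56 and 109 in wild-type glands. Wild-type 3 held more than the other wild-type libraries, at 2.27 times their mean in CPM. Ccl6 fell by 1.44 on the log2 scale (SE 0.37, edgeR adjusted p = 0.0307), and by 0.93 without wild-type 3 (adjusted p = 0.0284). It did not pass without any 1 Eda-/- library (adjusted p up to 0.140) or in limma-voom (0.0550).

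Ccr2, on chromosome 9, is the receptor for Ccl2 and its relatives by which monocytes leave the blood. Its counts were 57, 54 and 69 in Eda-/- glands, against 118, 148 and 218 in wild-type glands. Ccr2 averaged 5.14 ± 0.213 CPM in Eda-/- glands and 10.02 ± 3.51 CPM in wild-type glands, and fell by 0.96 on the log2 scale (SE 0.23, edgeR adjusted p = 0.0255). Without wild-type 3 it fell by 0.63 (adjusted p = 0.0182). It did not pass without any 1 Eda-/- library (adjusted p up to 0.128) or once trends with GC content and length were taken out (0.0618).

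**Figure D3:**
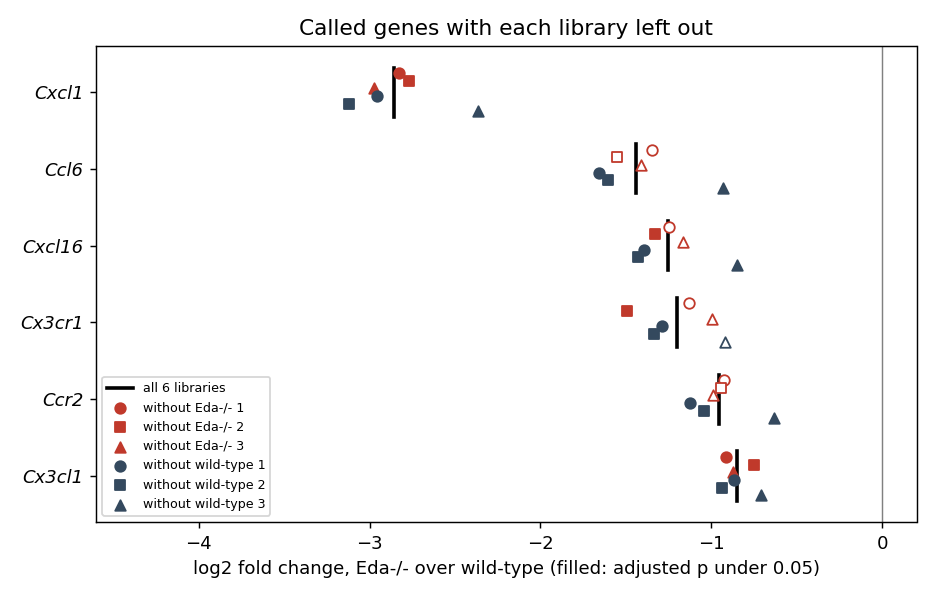
Log2 fold change, Eda-/- over wild-type, of 6 of the 7 genes that fell, with all 6 libraries (bar) and with each library left out (symbols; filled where the adjusted p was under 0.05). Cxcl1 and Cx3cl1 passed in all 6 fits, and the symbol without wild-type 3 lies closest to 0 in each gene.

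All 7 genes that fell had their highest wild-type value in wild-type 3, at 1.28 (Cx3cl1) to 2.27 (Ccl6) times the mean of the other wild-type libraries. Without it 6 members passed lower, and with wild-type 1 left out 8 did. Without Eda-/- 1, 2 or 3 the number was 3, 5 and 3. Cxcl1 and Cx3cl1 passed whichever library was left out.

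The ligands known for steady production in glands and stroma did not pass. Ccl28 had a log2 fold change of -0.02 (SE 0.09, edgeR adjusted p = 0.913), and its sign changed with the library left out (-0.12 to 0.06). Its receptor gene Ccr10 held 5 counts over all 6 libraries. The plasma cell genes Igha and Jchain, which code for the heavy chain and the joining chain of secreted IgA, varied widely within each group. Igha had 2349, 869 and 1704 counts in Eda-/- glands, against 388, 1532 and 299 in wild-type glands, and did not pass (log2 1.65, edgeR adjusted p = 0.288).

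Ccl25, the ligand of Ccr9 known for drawing lymphocytes to the thymus and small intestine, had 102, 87 and 89 counts in Eda-/- glands, against 144, 143 and 144 in wild-type glands. The raw counts of the groups are apart, but in CPM they overlap, since the scaling factors differ, and the log2 fold change was -0.15 (SE 0.13, adjusted p = 0.496). Ccr9 itself was the member with the highest fold change, at 55, 58 and 61 counts in Eda-/- glands, against 71, 66 and 53 in wild-type glands. In CPM every Eda-/- library lay above every wild-type library (log2 0.35, SE 0.17, edgeR adjusted p = 0.201), and it did not pass. Of the exon bases of Ccr9 18.8% overlap the annotated transcript AC165425.1 on the other strand.

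Cxcl12, a stromal chemokine that retains leukocytes and progenitors through Cxcr4, had 166, 131 and 210 counts in Eda-/- glands, against 203, 213 and 269 in wild-type glands (log2 0.03, SE 0.14, adjusted p = 0.914; -0.25 with library totals). Its signalling receptor gene Cxcr4 was below the filter, with 3, 2 and 0 counts in Eda-/- glands, against 7, 9 and 12 in wild-type glands. The atypical receptor gene Ackr3, whose product clears Cxcl12, had 17, 25 and 27 counts in Eda-/- glands, against 25, 38 and 25 in wild-type glands (log2 0.13, SE 0.27, adjusted p = 0.807; -0.15 with library totals). Cxcl14, an epithelial chemokine, had 37, 19 and 30 counts in Eda-/- glands, against 52, 57 and 66 in wild-type glands. In CPM its groups just failed to touch, at 3.23 in the highest Eda-/- library and 3.24 in the lowest wild-type library, and it did not pass (log2 -0.55, SE 0.23, edgeR adjusted p = 0.139).

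Of the remaining ligands in the test, Ccl9, Cxcl17 and Ccl8 were spread widely among the wild-type glands. Ccl9 had 272, 263 and 270 counts in Eda-/- glands, against 304, 338 and 558 in wild-type glands, and its log2 fold change of -0.10 was 0.26 without wild-type 3. Cxcl17, a mucosal chemokine, had 40, 27 and 32 counts in Eda-/- glands, against 33, 50 and 78 in wild-type glands, with a log2 fold change of -0.23 that was 0.19 without wild-type 3. Neither gene passed (edgeR adjusted p = 0.865 for Ccl9 and 0.689 for Cxcl17). Ccl8, a relative of Ccl2, had 13, 3 and 17 counts in Eda-/- glands, against 18, 36 and 63 in wild-type glands, and did not pass (log2 -1.36, SE 0.60, adjusted p = 0.194). It passed with wild-type 1 left out (-1.69, adjusted p = 0.0346) and with no filter on low counts (adjusted p = 0.000815), and its log2 fold change was -0.78 without wild-type 3. Ccl11, or eotaxin, which attracts eosinophils, had 25, 39 and 32 counts in Eda-/- glands, against 44, 59 and 37 in wild-type glands (log2 -0.06, adjusted p = 0.907). With library totals as the scaling Ccl28, Ccl25 and Cxcl14 also passed lower, at -0.30, -0.43 and -0.83, along with the 7 genes above, where 33.1% of all tested genes were lower.

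The 36 members with counts below the filter held 51, 38 and 29 counts in the Eda-/- libraries, against 85, 115 and 251 in the wild-type libraries, so wild-type 3 held more than the other two wild-type libraries together. Per effective library size 28 of the 36 had a lower sum in Eda-/- glands, where 60.9% of all genes below the filter did. In 8 the Eda-/- libraries were all at 0 and in 3 (Ccl1, Ccl17 and Cxcl15) the wild-type libraries were, where 31.2% and 13.3% of all genes below the filter showed those patterns. At these depths such counts are too few to show an absence. Among the 14 with 20 or more counts, every Eda-/- library was below every wild-type library in 9 and above in 0. Among all genes below the filter with 20 or more counts 15.0% were lower in this way.

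Of the ligands among these 14, Cxcl10, Cxcl9, Ccl2 and Ccl7 passed in a fit with no filter on low counts, given below with its limits. Cxcl10, which draws T and NK cells through Cxcr3, had 0, 1 and 0 counts in Eda-/- glands, against 3, 9 and 43 in wild-type glands, and 78.2% of the wild-type counts came from wild-type 3. The ratio of its normalised sums (Eda-/- over wild-type) was 0.0253, and its 95% interval, exact binomial and for counting error alone, ran between 0.000629 and 0.147. Cxcl9, of the same group, had 1, 0 and 0 counts in Eda-/- glands, against 2, 6 and 14 in wild-type glands (ratio 0.0632, interval 0.00153 to 0.391). Cxcl11, annotated as a polymorphic pseudogene and therefore no member, had 0, 1 and 0 counts in Eda-/- glands, against 1, 0 and 1 in wild-type glands. Ccl2, the main monocyte chemokine, had 0 counts in the 3 Eda-/- libraries, against 1, 6 and 23 in wild-type glands. With a floor of 3 counts set for the Eda-/- group, it was 7.19-fold lower. This value takes the wild-type counts as exact, so it leaves out their counting error and the spread between mice. Wild-type 3 held 76.7% of the wild-type counts, and without it the value was 2.47-fold. Ccl7, a neighbour and relative of Ccl2, had 2, 3 and 0 counts in Eda-/- glands, against 6, 5 and 21 in wild-type glands (ratio 0.217, interval 0.0661 to 0.562). Without wild-type 3 the ratio was 0.0788 for Cxcl10 (interval 0.00184 to 0.532), 0.118 for Cxcl9 (0.00266 to 0.881) and 0.430 for Ccl7 (0.117 to 1.34).

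The receptor genes below the filter varied. Ccr1, a receptor of monocytes and neutrophils, had 0, 0 and 1 counts in Eda-/- glands, against 4, 2 and 13 in wild-type glands (ratio 0.0732, interval 0.00176 to 0.461). Ccr7, which guides dendritic cells and T cells to lymph nodes, had 1, 0 and 1 counts in Eda-/- glands, against 2, 4 and 14 in wild-type glands (ratio 0.139, interval 0.0158 to 0.573). Without wild-type 3 the intervals of both included 1, at 0.00343 to 1.30 for Ccr1 and 0.0311 to 1.76 for Ccr7. Cxcr4, with its counts given above, had a ratio of 0.248 (interval 0.0749 to 0.652), and of 0.295 (0.0846 to 0.844) without wild-type 3. It did not pass with no filter on low counts (edgeR adjusted p = 0.0721). The ratio of Cxcr6 was 0.696 (interval 0.305 to 1.497), and Ccr6 had 2, 4 and 0 counts in Eda-/- glands, against 2, 1 and 2 in wild-type glands. Cxcr3 had 1, 0 and 0 counts in Eda-/- glands, against 2, 2 and 5 in wild-type glands. In an edgeR fit with no filter on low counts, 5 of the 36 were called lower and 0 higher, namely Cxcl10, Cxcl9, Ccl2, Ccl7 and Ccr1, where 3.51% of the genes in that fit were lower. Without wild-type 3 as well, 0 of the 36 passed, where 2.79% of genes were lower, and the log2 fold changes of these 5 were -3.30, -2.74, -4.59, -1.17 and -2.35.

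**Figure D4:**
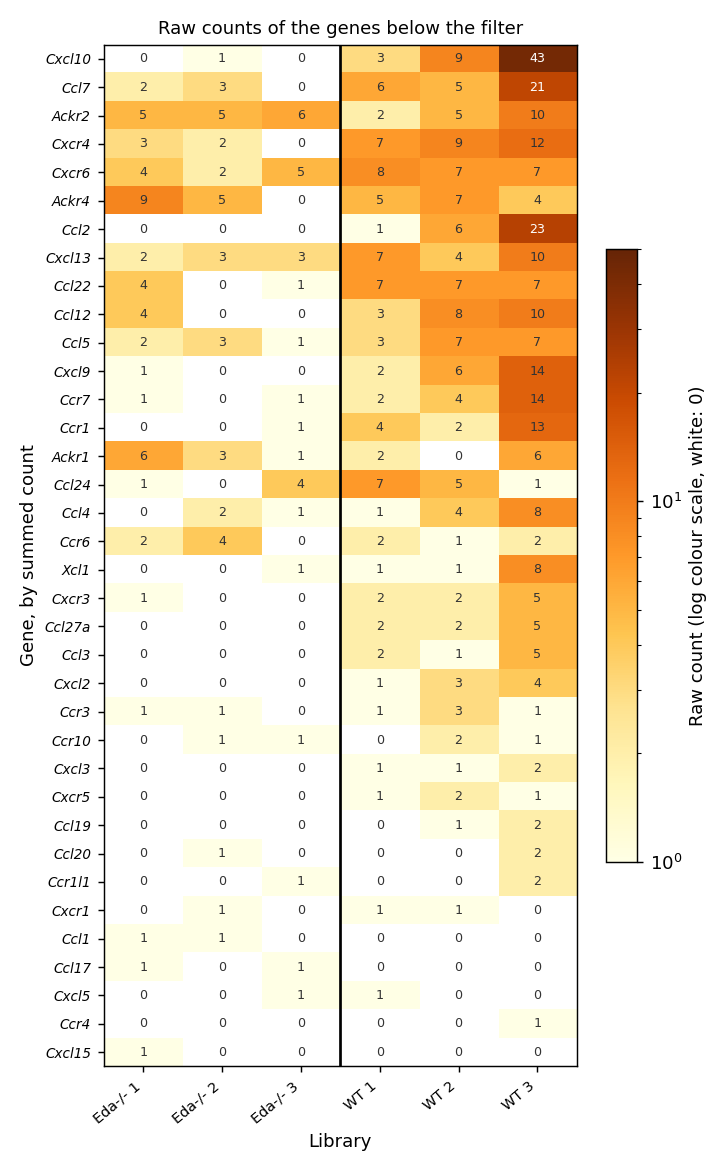
Raw counts of the 36 genes with counts below the filter, with Eda-/- libraries left of the line and wild-type libraries right of it, coloured on a log scale. Counts gather in the wild-type 3 column, with 43 for Cxcl10 and 23 for Ccl2.

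The other members with 20 or more counts were Ccl22, Ccl12, Ccl5, Cxcl13, Ackr2 and Ackr4. Ccl22, a dendritic cell product that attracts Ccr4-bearing T cells, had 4, 0 and 1 counts in Eda-/- glands, against 7 in each wild-type library. Ccl12 had 4, 0 and 0 counts in Eda-/- glands, against 3, 8 and 10 in wild-type glands. Ccl5, a T and NK cell product, had 2, 3 and 1 counts in Eda-/- glands, against 3, 7 and 7 in wild-type glands. Cxcl13, which draws B cells, had 2, 3 and 3 counts in Eda-/- glands, against 7, 4 and 10 in wild-type glands. Per effective library size, the sums of the scavenger receptor genes went the other way. Ackr2, whose product clears inflammatory CC chemokines, had 5, 5 and 6 counts in Eda-/- glands, against 2, 5 and 10 in wild-type glands (ratio 1.31, interval 0.619 to 2.76). Ackr4, whose product clears Ccl19, Ccl21 and Ccl25, had 9, 5 and 0 counts in Eda-/- glands, against 5, 7 and 4 in wild-type glands (ratio 1.22, interval 0.550 to 2.66). Neither ratio differed from 1 beyond counting error. The 22 members with 1 to 19 counts were Ackr1, Ccl1, Ccl3, Ccl4, Ccl17, Ccl19, Ccl20, Ccl24, Ccl27a, Ccr1l1, Ccr3, Ccr4, Ccr6, Ccr10, Cxcl2, Cxcl3, Cxcl5, Cxcl15, Cxcr1, Cxcr3, Cxcr5 and Xcl1. Of these, Ackr1 shares 25.7% of its exon bases with Cadm3 on the same strand.

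Genes around the family were read from lists of the machinery on which chemokines depend. The shares over all tested genes, 6.90% lower and 6.21% higher with a median log2 fold change of 0.00, stand behind each count of a list below. Of 30 tested genes of G protein signalling and cell migration 3 fell and 1 rose (median -0.25), a share near that of all genes. Dock2, which activates Rac in migrating leukocytes, averaged 5.24 ± 0.676 CPM in Eda-/- glands and 10.9 ± 1.90 CPM in wild-type glands (log2 -1.05, SE 0.16, edgeR adjusted p = 0.000341). Elmo1, the partner of Dock2 and its relatives, fell by 0.52, and both passed with each library left out. Pik3r5, a regulatory subunit of the PI3 kinase that G proteins activate, had a log2 fold change of -2.01, was above the filter in the wild-type libraries only and passed in 2 of 6 fits with a library left out. Of 20 tested genes that present or cut chemokines 3 fell and 0 rose (median -0.05), where 13.1% of all tested genes passed in either direction. They were the heparan sulphate proteoglycan genes Sdc2 (-0.90) and Sdc4 (-0.38) and Mmp2 (-0.84), a protease that can trim chemokines. The sheddases Adam10 (0.03) and Adam17 (0.02), which release Cx3cl1 and Cxcl16 from the cell surface, did not pass.

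Genes of the pathways that induce chemokines, inhibitors of NF-kB included, formed the inducer list. Of its 26 tested genes 9 fell and 0 rose (median -0.46), where 6.90% of all tested genes were lower. The deleted gene Eda itself was among the 9. The others with the smallest p were Nfkbia (-0.998) and Tnfaip3 (-1.63), both inhibitors and targets of NF-kB, and the subunit gene Relb (-1.16). Each of these passed with each library left out, as did the subunit gene Rel (-0.80). Rela, by contrast, passed in 1 of 6 such fits, Ifngr2 in 2, and Il1r1 and Map3k14 in 3 each. Wild-type 3 was again the highest wild-type library of the summed list, at 429 CPM, against 341 and 363 CPM in wild-type 1 and 2.

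Among leukocyte markers the macrophage list held most of the genes that passed. Of 14 tested macrophage genes 6 fell and 0 rose, where 6.90% of all tested genes were lower, with a median log2 fold change of -1.14. The summed list stood at 67.6 to 77.5 CPM in Eda-/- glands and at 119 to 205 CPM in wild-type glands, with wild-type 3 highest. Tyrobp (-1.71), an adaptor of myeloid receptors, Mrc1 (-0.93), the mannose receptor, Csf1r (-1.01) and Fcer1g (-1.26) had the smallest p, although Fcer1g passed in 2 of 6 fits with a library left out, and no macrophage gene was at 0 in all libraries. Of 6 tested dendritic cell genes, only H2-Aa (-1.34), a chain of MHC class II, passed (and in 5 of 6 fits with a library left out). The summed list stood at 47.5 to 62.2 CPM in Eda-/- glands and 85.9 to 151 CPM in wild-type glands. Most of this sum came from H2-Aa, H2-Ab1 and Cd74, genes of MHC class II presentation. Flt3, Xcr1, Clec9a and Batf3 were too low to test, so the sum does not stand for dendritic cells. The share of the macrophage and dendritic cell markers in the lower values of Ccr2, Cx3cr1, Ccl6 and Cxcl16 was not tested.

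T cell, NK cell and neutrophil markers were scarce. The B and plasma cell list, by contrast, stood at 103.6 to 256.9 CPM in Eda-/- glands and 25.2 to 118.8 CPM in wild-type glands, which overlap, and neither of its 2 tested genes, Igha and Jchain, passed. Of 10 T cell genes only Il7r had enough counts to be tested, with 4, 1 and 3 counts in Eda-/- glands, against 16, 16 and 35 in wild-type glands (log2 -2.55, SE 0.54, edgeR adjusted p = 0.00554). It was above the filter in the wild-type libraries only, and 1 gene does not stand for the list. The defining T cell gene Cd3e had 2, 0 and 0 counts in Eda-/- glands, against 2, 3 and 5 in wild-type glands. The summed T cell list stood at 0.937 to 1.56 CPM in Eda-/- glands and 2.71 to 5.20 CPM in wild-type glands. The neutrophil list stood at 0.187 to 0.611 CPM in Eda-/- glands and 0.748 to 1.22 CPM in wild-type glands, and Retnlg was at 0 in all libraries. Most of these counts were from 1 gene, Csf3r, with 5, 1 and 4 counts in Eda-/- glands, against 10, 14 and 15 in wild-type glands. The difference of this list is therefore largely that of Csf3r. For NK cells the lists overlapped, at 0.349 to 1.03 CPM in Eda-/- glands and 0.873 to 2.44 CPM in wild-type glands, as did those for mast cells, at 1.13 to 3.84 CPM in Eda-/- glands and 1.35 to 2.06 CPM in wild-type glands.

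Structural cells are also sources of chemokines, and their counts stand against 6.90% lower and 6.21% higher over all tested genes. Among 10 tested genes of blood endothelium, Flt1 (-0.51) and Vwf (-1.01) fell, with a median of -0.02 over the list. Plvap (0.53) passed higher with all libraries (edgeR adjusted p = 0.0458) and in 0 of 6 fits with a library left out (adjusted p up to 0.151). Of 7 tested fibroblast genes Dcn (-0.42), Pdgfra (-0.52) and Col1a2 (-0.62) fell. Of 7 tested myoepithelial and basal genes Mylk (-0.71), Trp63 (-0.83), Myh11 (-0.38) and Cnn1 (-0.57) fell. The others, Acta2 (-0.54) and the keratin genes Krt5 (-0.03) and Krt14 (-0.01), did not pass. Of 7 tested acinar genes Bhlha15 rose (0.36) and Sox10 fell (-0.73), with a median of 0.03. With each library left out, Col1a2 passed in 3 of 6 fits, Sox10 in 2, and Myh11 and Cnn1 in 1 each. Neither of the 2 tested lymphatic endothelial genes passed. The summed blood endothelial list stood at 51.8 to 56.7 CPM in Eda-/- glands and 60.6 to 75.6 CPM in wild-type glands. Its difference was that of Vwf (mean 9.36 CPM in Eda-/- glands, against 18.9 in wild-type glands) and Flt1 (8.86, against 12.6). Of the 10 tested genes 5 had a log2 fold change below 0, so the sum does not stand for the list. The fibroblast list (160.0 to 188.7, against 202.5 to 264.9) and the myoepithelial and basal list (96.8 to 113.8, against 132.8 to 169.8) were also lower without overlap. The acinar list was higher (899.5 to 954.0, against 827.5 to 845.1), and the lymphatic list overlapped. The acinar difference was largely that of Bhlha15, at a mean of 435 CPM in Eda-/- glands and 340 CPM in wild-type glands. Of the 7 tested acinar genes 3 had a log2 fold change below 0, so the sum does not stand for the list.

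**Figure D5:**
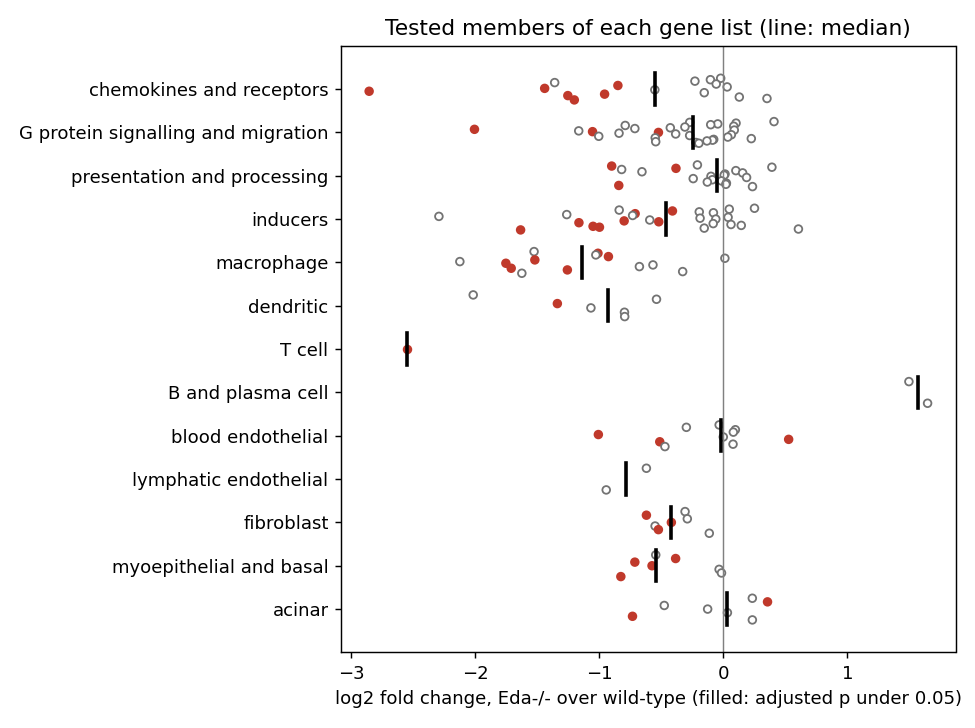
Log2 fold change, Eda-/- over wild-type, of the tested members of the chemokine family and of each gene list; filled points have an adjusted p under 0.05 and vertical bars are medians, with Eda itself (-5.35) left off the axis but kept in the median of the inducers. The medians lie at -0.55 for chemokines and receptors and at -1.14 for macrophage genes. The first includes Cxcl1, Ccl8 and Cx3cr1, which passed the filter through the wild-type libraries. The medians are over all tested genes of a list, and 2 genes besides Eda are not drawn.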

How the data were processed

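Total RNA was depleted of ribosomal RNA and made into strand-marking libraries, per the labels' protocols. The authors deposited raw counts of reads per gene, without normalisation or pooling. The submitters' processing notes name GRCm38.p5 and, in no stated order, STAR, featureCounts, Trimmomatic, bcl2fastq and DESeq2. For versions, annotation release, strand setting and multi-mapping reads, the choice is not given in the sources used here. Columns were matched to samples by name. Symbols and coordinates came from GENCODE M21 (GRCm38), which matched 50462 of 50686 identifiers.

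Genes were kept by filterByExpr (minimum count 10), scaled by TMM and tested with edgeR 4.0.16 (R 4.3.3) by a robust quasi-likelihood test, two-sided, with genotype alone. P-values were adjusted over all 13178 tested genes (Benjamini-Hochberg) and read at 0.05. CPM values use the TMM library sizes, and levels per length divide them by merged exon length. Each SE is |log2 fold change| / sqrt(F). Ratios of low counts have exact (Clopper-Pearson) intervals, which cover counting error only. No 2 libraries of a group agreed within sampling noise (chi-square per degree of freedom 9.16 to 29.0). The fits were first tested on simulated data.

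Of the genes that passed, 1 member and 1 list gene are counted but not reported here. Members and lists were chosen with earlier results of these data known. Every other tested member is named, as is each untested one with 20 or more counts, and up to 4 passing genes per list by p. Of the 5 passing members with a promoter in the table, 2 are printed, and Ccl28 was added. Exceptions, chosen after their values were seen, are Pf4, Cox18, Zmynd15, Igha, Jchain, Cd3e, S100a8, S100a9, Retnlg, Adam10, Adam17, Aqp5, Cxcr3, Ccr6 and Cxcl11. So are Csf3r, Rel, Rela, Ifngr2, Il1r1, Map3k14, H2-Ab1, Cd74, Flt3, Xcr1, Clec9a, Batf3, Acta2, Krt5 and Krt14. Alternatives used DESeq2 1.42.0, limma-voom (limma 3.58.1), other scalings and filters, a fit that was not robust, removal of the 20 most abundant genes, a replicate block and each library left out. A GC and length trend, the unfiltered fit without wild-type 3 and ratios of low counts without it were added after the data were seen.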

Additional observations from a re-analysis of the deposited data

How the results depend on the processing

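With library totals 4611 genes passed, 4365 lower and 246 higher, and 81 list genes against 36. The family count was 13, all lower, with no filter on low counts. With each library left out in turn it ran from 3 to 8, and genes lower from 599 to 834. Replicate numbers did not pair the libraries (correlations of same-numbered deviations -0.094 to 0.021). With a replicate block 1608 genes and the same number of members, 7, passed. Of 306 comparisons of a member with an alternative, 271 kept direction and call, 14 lost the call and 5 gained it. The 16 reversals were all in members that did not pass. With library totals Cxcl12 was at -0.25 and Ackr3 at -0.15. Ccl28 was at 0.025 with the GC and length trend removed, and at -0.12 to 0.061 with a library left out. With a library left out Ccl9 ran from -0.26 to 0.26, Cxcl17 from -0.47 to 0.19, Ccl11 from -0.29 to 0.12 and Cxcl12 from -0.071 to 0.21. Unfiltered and without wild-type 3, Ccl9 was at 0.24 and Cxcl17 at 0.17. Where no value above shows it, the cause was not tested. Members under about 20 counts were too shallow for a firm difference.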
